A study of Mus musculus with 6 samples.

Results

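The transcription factors described here were named as Sp6, Epfn, Msx2, Tbx1, Trp63, Foxo1, Satb1 and Isl1. Epfn (epiprofin) is a synonym of Sp6 in the RefSeq gene table and had no row of its own, so the 8 names stood for 7 genes of the 55487 in the expression table. They were measured by RNA sequencing in dental epithelium of mouse mandibular first molars at postnatal day 2.5, in 3 control and 3 cKO libraries. Control mice were Wnt10a fl/fl, carrying the floxed Wnt10a alleles without the Cre transgene, and cKO mice were K14-Cre;Wnt10a fl/fl, carrying the same alleles and a Cre driven by the keratin 14 promoter, which is active in epithelial cells. All 6 libraries therefore carried the floxed alleles, and no group carried K14-Cre alone. Each library was made from pooled molars, and the strain was not given in the sources used here.

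These genes encode DNA-binding proteins of the enamel organ, the epithelial part of the tooth germ. Wnt10a is a secreted ligand of the Wnt family, whose signal through beta-catenin reaches genes by way of the Lef and Tcf factors. At this stage the inner enamel epithelium differentiates into ameloblasts, which secrete amelogenin and ameloblastin and lay down enamel, while outer layers remain as stratum intermedium, stellate reticulum and outer enamel epithelium. Sp6 is a zinc finger protein of the Sp/KLF family needed for ameloblast differentiation. Msx2 is a homeodomain repressor and Tbx1 a T-box factor, both needed for normal enamel. Trp63 encodes p63, the regulator of stratified epithelia. Satb1 encodes a chromatin organizer that binds AT-rich DNA. Foxo1 is a forkhead factor held in the cytoplasm by Akt signalling, and Isl1 is a LIM homeodomain factor.

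Stretches of 250 bases before the annotated start are shown for 3 of these genes, from the RefSeq promoter windows on GRCm38.p6: Tbx1, whose mean was furthest above the control mean, Foxo1, whose log2 fold change was the lowest, and Isl1, which was barely detected. CpG pairs are in capitals, and each stretch reads 5′ to 3′ on the strand of its gene. The Tbx1 stretch is chr16:18590672-18590921 (reverse strand), the one at the outer of the gene's 2 RefSeq starts. The Foxo1 stretch is chr3:52268087-52268336 (forward strand) and the Isl1 stretch is chr13:116309689-116309938 (reverse strand).
Tbx1: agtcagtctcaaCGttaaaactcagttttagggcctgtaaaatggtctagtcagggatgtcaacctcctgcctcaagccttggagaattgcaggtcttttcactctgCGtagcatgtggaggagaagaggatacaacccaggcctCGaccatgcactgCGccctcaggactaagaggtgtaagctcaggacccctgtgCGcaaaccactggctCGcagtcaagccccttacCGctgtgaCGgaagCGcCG
Foxo1: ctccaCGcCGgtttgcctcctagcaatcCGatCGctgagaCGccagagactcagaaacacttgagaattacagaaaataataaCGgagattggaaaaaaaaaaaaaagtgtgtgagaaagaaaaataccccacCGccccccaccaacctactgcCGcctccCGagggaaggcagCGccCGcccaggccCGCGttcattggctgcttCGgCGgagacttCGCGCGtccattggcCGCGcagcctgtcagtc
Isl1: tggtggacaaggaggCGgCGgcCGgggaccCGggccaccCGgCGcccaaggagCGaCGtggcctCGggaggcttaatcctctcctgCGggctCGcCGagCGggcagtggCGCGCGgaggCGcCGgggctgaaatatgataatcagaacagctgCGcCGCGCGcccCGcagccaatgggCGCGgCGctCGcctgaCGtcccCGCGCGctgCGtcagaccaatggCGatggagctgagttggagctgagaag
The printed stretches held 10 CpG pairs for Tbx1, 20 for Foxo1 and 33 for Isl1. The whole 300-base windows, which add 50 bases after the start, held 16, 31 and 37, against a median of 7 over all 32851 RefSeq promoter windows. The Tbx1 counts depend on the start: the window at its other start (chr16:18588850-18589149) held 26, of which 17 lay in the 250 bases before the start. RefSeq windows were matched for 5 of the 7 genes (Foxo1, Isl1, Msx2, Satb1 and Tbx1, 10 windows in all) and not for Sp6 and Trp63. The Lef/Tcf core was searched as CTTTGAA and CTTTGAT, which share their first letters, and the core bound by Rbpj as GTGGGAA, on both strands. CTTTGAA stood in 5.14% of all windows, CTTTGAT in 3.73% and GTGGGAA in 6.38%. Among the 10 windows 1 match was found, GTGGGAA in a Satb1 window at chr17:51812005-51812304. With such shares few matches can be looked for in 10 windows, and the count was not tested. Several of the windows belong to Satb1, and some of these overlap.

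Wnt10a itself was lower in every cKO library. It was at 55.96, 51.2 and 57.86 TPM (each gene's length-scaled share of the transcripts in a library) in the controls and at 22.69, 21.79 and 32.22 TPM in the cKO libraries, a log2 fold change of -1.10 ± 0.19 (SE, n = 3 per group; limma, adjusted p = 0.747; exact permutation p = 0.1). The values did not overlap, in the direction the labels give.

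The epithelial label was checked against marker genes. All 7 dental epithelial markers were above 1 TPM, with Amelx (amelogenin) taking 17.2%, 16.5% and 20.6% of the control libraries and 16.6%, 8.65% and 18.1% of the cKO libraries. The replicate 2 cKO library thus held the smallest share of amelogenin. RNA of other cells was present too: 11 markers of dental mesenchyme and odontoblasts summed to 7065, 4491 and 3568 TPM in the controls and 4554, 5155 and 4741 TPM in the cKO libraries, led by Col1a1 at 1795 to 3127 TPM, and none was at 0 in every library. The 4 osteoblast markers summed to 733, 484 and 441 TPM in the controls and 1176, 887 and 795 TPM in the cKO libraries, with no overlap (exact two-sided permutation p = 0.1, the smallest 3 against 3 can give). The separation came from Bglap (osteocalcin), at 392 to 1089 TPM, since the other 3 markers each overlapped and summed to 115, 75.5 and 48.8 TPM in the controls and 87.3, 202 and 57.6 TPM in the cKO libraries. The 5 erythroid markers summed to 1761, 1325 and 1978 TPM against 1228, 1282 and 1161 TPM, again without overlap (exact permutation p = 0.1). The most abundant were Hbb-bs at 404 to 718 TPM and Hba-a2 at 409 to 814 TPM. Endothelial markers summed to 95.5, 60.2 and 81.5 TPM in the controls and 47.7, 52.3 and 67.3 TPM in the cKO libraries. Leukocyte markers summed to 68.1, 50.8 and 58.6 TPM against 52.8, 47.9 and 50.3 TPM. Both sums overlapped between the groups (exact permutation p = 0.2 each). Skeletal muscle markers summed to 3.60 to 7.31 TPM, with Myod1 at 0 throughout. Markers of neurons and Schwann cells summed to 90.3 to 139 TPM, of which Tubb3 made up 84.2 to 131 TPM. The part of these cells in the values below was not tested, and in bulk RNA fewer cells of a type and less RNA per cell cannot be told apart.

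TPM are scaled by transcript length, so levels can be compared between genes, but they keep no read depth and the depth of each library is unknown. The libraries summed to 983952 to 993946 TPM and listed 20185 to 23203 genes above 0. Sp6 was the most abundant of the 7 genes, with a mean of 471 TPM over the 6 libraries. Satb1 followed at 146 TPM, Trp63 at 108 TPM, Msx2 at 96.2 TPM, Tbx1 at 66.0 TPM, Foxo1 at 16.8 TPM and Isl1 at 0.157 TPM. The values of Sp6 lay wholly above those of Satb1, those of Tbx1 wholly above those of Foxo1 and those of Foxo1 wholly above those of Isl1. Between Satb1, Trp63, Msx2 and Tbx1 the ranges of neighbours overlapped. Satb1 was nevertheless above Trp63 in 6 of 6 libraries and Msx2 above Tbx1 in 6 of 6, whereas Trp63 was above Msx2 in 4 of 6.

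**Figure D1:**
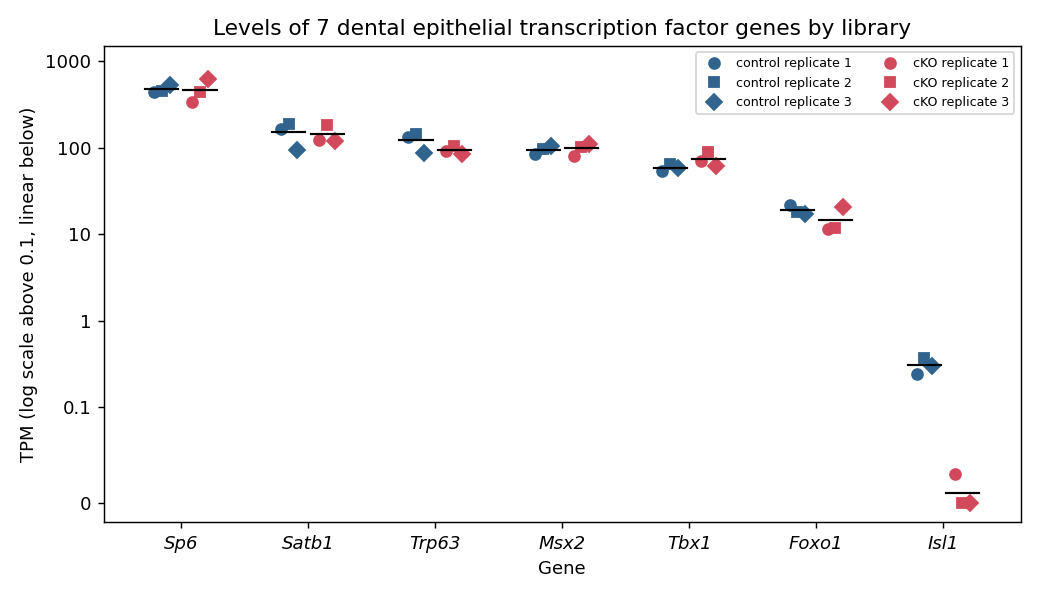
TPM of the 7 genes in each of the 6 libraries, on a log axis above 0.1 TPM and a linear one below, with black bars for group means. Control and cKO points overlap for each gene except Isl1, whose cKO values are 0 to 0.03 TPM.

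Among 77 transcription factor genes listed for comparison (these 7, their relatives and other factors of dental epithelium), Sp6 had the highest control mean. Satb1 ranked 4, Trp63 5, Msx2 9, Tbx1 12, Foxo1 24 and Isl1 68. Dlx3 (155 TPM), a homeobox factor of hair, tooth and bone, ranked 3. Among all genes, the control mean of Sp6 ranked 229 and that of Foxo1 5118.

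Relatives were compared for 6 of the genes, and 4 of the 6 were the most abundant of the compared family members in every library. Sp6 was 9.19 to 34.9 times its most abundant relative Sp3 (34.4 TPM in controls), and Sp8 was listed at 0. Msx2 was 5.91 to 14.4 times Msx1, which marks dental mesenchyme. Tbx1 was 8.47 to 18.4 times Tbx2. Trp63 was 2.07 to 5.10 times Trp53, the tumour suppressor, at 33.3 TPM in controls. Foxo1 was closer to its relatives. It was 0.843 to 1.42 times Foxo4 and was the highest of the FoxO genes in 5 of 6 libraries. Isl1 was above Isl2 in 4 of 6 libraries, both being near 0.

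**Figure D2:**
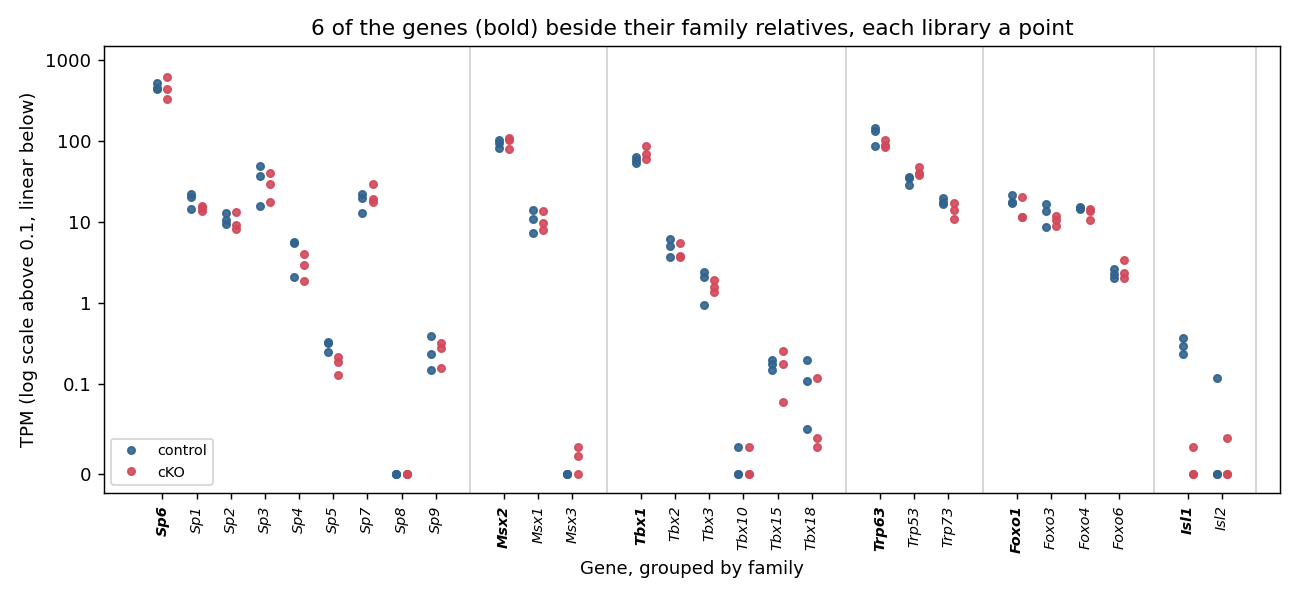
TPM of 6 of the genes (bold) and 21 relatives in the control and cKO libraries, on a log axis above 0.1 TPM and a linear one below; each point is 1 library. Sp6, Msx2, Tbx1 and Trp63 lie above their relatives in all 6 libraries, while Foxo1, the highest of its family in 5 of 6 libraries, lies close to Foxo3 and Foxo4.

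The comparison between cKO and control asked whether these factors changed when Wnt10a was deleted from the epithelium. None of the 6 genes that averaged 1 TPM or more over the libraries met the study's criterion, an unadjusted p below 0.05 together with a difference of over 20% of the control mean. The study gave these thresholds without naming the tool behind the p-values of its sequencing calls. The p-values here came from limma, so the counts are not those of the study. With them the criterion was met by 552 of 13719 tested genes (4.02%), 213 in the direction of higher cKO values (1.55%) and 339 in the other (2.47%). The split depended on scaling: it was 104 higher and 651 lower after rescaling to coding genes without Amelx and Ambn, 324 and 325 after quantile normalization, 316 and 333 after median-ratio scaling, and 334 and 285 after a length and GC correction. In limma 0 of the 6 had an unadjusted p below 0.05, and all had an adjusted p of 1.00, where 2 of the tested genes (0.0146%) had an adjusted p below 0.05. In 0 of the 6 were the groups without overlap, against 1323 (9.64%) of the tested genes. With median-ratio scaling 2 of the 6 (Tbx1 and Trp63) had groups without overlap, against 10.5% of the genes then tested, and with quantile normalization Tbx1 alone, against 9.93%. The median absolute log2 fold change was 0.18 both over the 6 and over all tested genes.

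Sp6, at chr11:97013394-97024734 (forward strand, 2 exons in its longest transcript), was at 443, 457 and 524 TPM in the controls and at 335, 445 and 624 TPM in the cKO libraries. The cKO libraries thus held both the lowest and the highest value. The means were 474 ± 43.3 and 468 ± 146 TPM (SD, n = 3 each), a log2 fold change of -0.06 ± 0.23 (SE; limma, p = 0.80; exact permutation p = 0.9). The 95% interval ran from -0.61 to 0.49, which is 0.654 to 1.40 times the control level. The exons of Sp6 share 3329 bases with Gm11532, a transcript annotated on the other strand, at 2.46 to 11.0 TPM, and reads from the pair cannot be told apart where strand was not used.

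Msx2, at chr13:53466884-53473074 (reverse strand, 2 exons), was at 83.6, 95.5 and 105 TPM in the controls and at 80.5, 103 and 110 TPM in the cKO libraries. The groups covered nearly the same range. Its log2 fold change was 0.04 ± 0.18 (limma, p = 0.826; exact permutation p = 0.8), with an interval of 0.771 to 1.37 times the control level. In each group the library with the highest Sp6, replicate 3, also had the highest Msx2, and the one with the lowest Sp6, replicate 1, the lowest Msx2.

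Tbx1, at chr16:18580979-18590671 (reverse strand, 7 exons), was at 53.2, 64.8 and 58.4 TPM in the controls and at 70.2, 88.4 and 61.2 TPM in the cKO libraries. 2 cKO libraries lay above all controls and the third between them. The mean was 24.6% above that of the controls, with a log2 fold change of 0.30 ± 0.18 (95% interval -0.13 to 0.73; limma, p = 0.144; exact permutation p = 0.2). The highest value came from the cKO library with the smallest amelogenin share, and without that library the log2 fold change was 0.16. With all 6 libraries it was 0.25 after rescaling to coding genes without Amelx and Ambn. It was 0.37 with median-ratio scaling and 0.33 with quantile normalization. The part of the amelogenin share in the difference was not tested.

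Trp63, at chr16:25683763-25892102 (forward strand, 14 exons), was at 134, 145 and 86.2 TPM in the controls and at 90.4, 105 and 84.9 TPM in the cKO libraries. Control replicate 3 lay within the cKO range and the other controls above it. The mean was 23.3% below that of the controls, with a log2 fold change of -0.35 ± 0.22 (95% interval -0.88 to 0.18; limma, p = 0.161; exact permutation p = 0.3). Without control replicate 3 it was -0.58 (limma, adjusted p = 0.572) and met the criterion, as did 8.33% of all genes tested without that library, while the median of all tested genes moved from -0.07 to -0.18. Without control replicate 2 it was -0.205, and it did not meet the criterion. Trp63 is known to give long and N-terminally truncated isoforms, and a value per gene does not separate its 8 annotated transcripts.

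Satb1, at chr17:51736187-51833290 (reverse strand, 11 exons), was at 166, 189 and 95.04 TPM in the controls and at 122, 184 and 121 TPM in the cKO libraries. The cKO values lay inside the control range. The log2 fold change was -0.05 ± 0.30 (95% interval -0.74 to 0.65; limma, p = 0.882; exact permutation p = 0.9). Satb1 and Trp63 were each highest in replicate 2 and lowest in replicate 3 of both groups.

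Foxo1, at chr3:52268336-52353221 (forward strand, 3 exons), was at 21.5, 18.0 and 17.3 TPM in the controls and at 11.6, 11.7 and 20.7 TPM in the cKO libraries. 2 cKO libraries lay below all controls and replicate 3 within them. The mean was 22.6% below that of the controls, with a log2 fold change of -0.39 ± 0.25 (95% interval -0.99 to 0.21; limma, p = 0.168; exact permutation p = 0.3). Without cKO replicate 3 the log2 fold change was -0.65 (limma, adjusted p = 0.646) and met the criterion, as did 6.72% of all genes tested without that library. Without cKO replicate 1 it was -0.26 and did not meet it.

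Isl1, at chr13:116298281-116309689 (reverse strand, 6 exons), was at 0.24, 0.37 and 0.30 TPM in the controls, at 0.03 TPM in 1 cKO library and listed at 0 in the other two. The groups did not overlap (exact permutation p = 0.1), but every value was below the 1 TPM required for testing and the depth behind the values is unknown. With no such filter it met the criterion (log2 fold change -0.37 on the log2(TPM + 1) scale; limma, adjusted p = 0.625), as did 3.33% of the genes then tested.

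**Figure D3:**
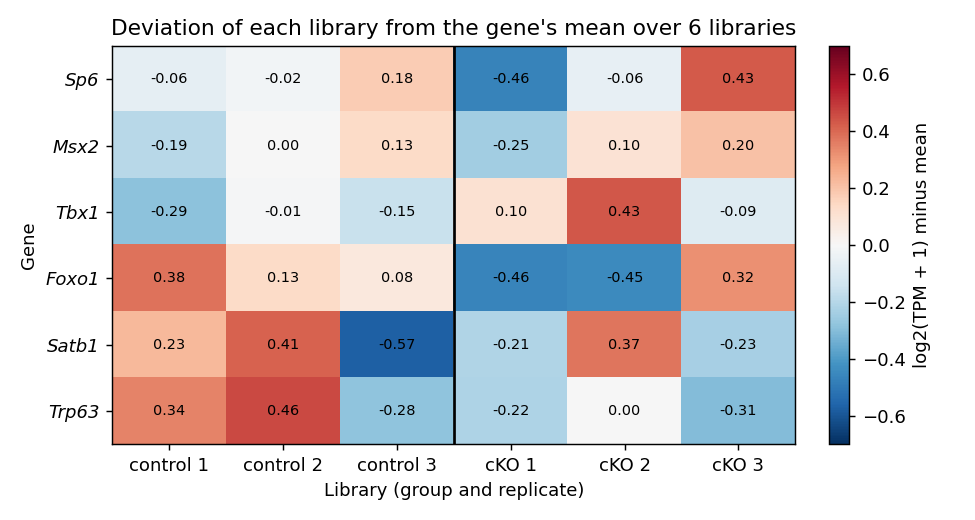
Deviation of each library's log2(TPM + 1) from the gene's mean over the 6 libraries, with controls left of the black line and cKO right. Sp6 and Msx2 are highest in replicate 3 of both groups, and Satb1 and Trp63 highest in replicate 2 of both groups.

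The 6 tested factors differ in transcript length, and the median difference was not the same in the length bins that hold them. When protein-coding genes were divided into 10 equal bins by their longest transcript, the median log2 fold change was -0.30 in the longest bin, which holds Foxo1 (8665 bases), and -0.22 in the next longest, which holds Trp63 (5366 bases) and Satb1 (6243 bases). It was -0.10 in the bin of Sp6, 0.004 in that of Msx2 and -0.02 in that of Tbx1. Within its bin Trp63 stood at percentile 27.7, Foxo1 at 35.7, Sp6 at 57.3, Msx2 at 59.4, Satb1 at 77.3 and Tbx1 at 94.2. After correction for length and GC the log2 fold change of Trp63 was -0.20, that of Foxo1 -0.09, that of Satb1 0.14, that of Sp6 0.09, that of Msx2 0.04 and that of Tbx1 0.35. The negative values of Trp63 and Foxo1 thus became smaller with the correction, those of Sp6 and Satb1 changed sign and that of Tbx1 did not shrink.

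**Figure D4:**
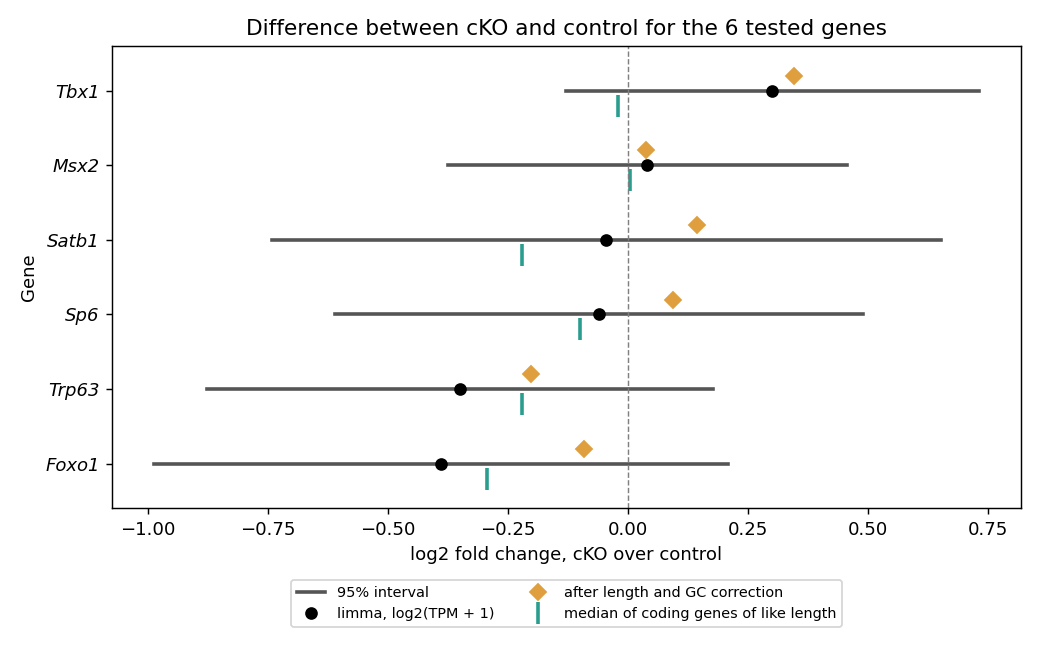
Log2 fold change of cKO over control for the 6 tested genes (black) with its 95% interval, beside the value after length and GC correction (orange) and the median of coding genes of like length (green). Every interval spans 0, and the orange points of Trp63 and Foxo1 lie closer to 0 than the black ones.

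Genes linked to these factors were read from fixed lists, whose counts stand beside 4.02% of all tested genes past the criterion and 8266 of 13719 (60.3%) with a negative log2 fold change (median -0.07). Of 19 tested genes of the p63 epithelial program, 1 rose and 1 fell by the criterion, and 17 of 19 log2 fold changes were negative (median -0.32). The length and GC correction brought the median of all genes to 0.002, with 6793 of 13707 negative. In the p63 program 16 of 19 were negative after it, and the median was -0.17. Fgfr2, a receptor of fibroblast growth factors, was at 285, 410 and 621 TPM in the controls and at 1024, 626 and 651 TPM in the cKO libraries, a log2 fold change of 0.84 ± 0.32 (limma, adjusted p = 1.00; exact permutation p = 0.1). Dsp, encoding the desmosomal protein desmoplakin, was at 145, 108 and 93.2 TPM against 52.7, 70.8 and 92.4 TPM (log2 fold change -0.69 ± 0.25; limma, adjusted p = 1.00; exact permutation p = 0.1). Its log2 fold change after length and GC correction was -0.33, where it no longer met the criterion, while that of Fgfr2 was 1.01. Fgfr2 met it under 11 of 16 alternatives, but not under quantile or median-ratio scaling or without control replicate 1, control replicate 2 or cKO replicate 1. Dsp also met it under 11 of 16, and not without control replicate 1, cKO replicate 1 or cKO replicate 2. The most abundant genes of the list, the basal keratins Krt5 (2979 and 2427 TPM, control and cKO means) and Krt14 (2494 and 2430 TPM), did not meet it.

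Of 17 tested FoxO targets, 1 fell and 12 of 17 log2 fold changes (70.6%) were negative (median -0.11), near the shares over all tested genes. After the correction 9 of 17 were negative and the median was -0.01. The gene that fell was Sesn3, a sestrin of the stress response (27.8 ± 10.3 against 15.7 ± 0.835 TPM; log2 fold change -0.71 ± 0.30; limma, adjusted p = 1.00; exact permutation p = 0.2), whose groups overlapped. After the correction its log2 fold change was -0.45 and it no longer met the criterion, which it met under 8 of 16 alternatives and in only 1 of the 6 fits that left out a library. Cdkn1a, the cell cycle inhibitor p21, was the most abundant at 452 and 428 TPM, and Txnip, an inhibitor of thioredoxin, followed at 165 and 172 TPM.

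Of 21 cofactors and partners of these factors, 1 fell, and 19 of 21 log2 fold changes were negative (median -0.15). After the correction 18 of 21 were negative, with a median of -0.04, against 6793 of 13707 genes. Ctbp2, a corepressor, was at 33.7, 30.3 and 35.9 TPM in the controls and at 14.0, 16.6 and 12.7 TPM in the cKO libraries (log2 fold change -1.16 ± 0.17; limma, adjusted p = 0.485; exact permutation p = 0.1), and met the criterion under 16 of 16 alternatives. The most abundant were Ldb1 (131 and 104 TPM), the adaptor of LIM proteins such as Isl1, and Akt1 (111 and 104 TPM), the kinase that phosphorylates Foxo1.

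None of 16 tested relatives of the 7 genes met the criterion in either direction. 1 of the 16 had groups without overlap, Trp53, at 33.3 TPM in controls and 42.6 TPM in cKO, a share below the 9.64% of all tested genes. Of 38 other tested factors of dental epithelium, 0 rose and 2 fell, a share close to the 4.02% of all tested genes, and the signs were even, with 19 positive and 19 negative (median 0.01). Those that fell were Nfic, needed for root formation (18.7 against 12.4 TPM; log2 fold change -0.60 ± 0.25), and Zeb1, a repressor of epithelial genes expressed in mesenchyme (3.41 against 1.49 TPM; log2 fold change -0.85 ± 0.28), each with an adjusted p of 1.00 by limma and an exact permutation p of 0.1. The study counts NFIC among root regulators that act from the dental mesenchyme. Which cells gave the values of these 2 genes was not tested. After the length and GC correction the log2 fold change of Nfic was -0.30 and that of Zeb1 -0.67, and neither met the criterion. Nfic met it under 7 of 16 alternatives, and neither quantile nor median-ratio scaling was among them, and Zeb1 under 10 of 15. The list of enamel matrix and protease genes also holds Dspp, a dentin matrix gene that is among the odontoblast markers too, and Fam20a and Fam20c, which act in protein phosphorylation. None of its 10 genes met the criterion. All 10 log2 fold changes were negative, where 60.3% of all tested genes were (median -0.46, and -0.41 after the correction). Amelx was at 170792, 163351 and 203538 TPM in the controls and at 163658, 85454 and 178807 TPM in the cKO libraries, a mean 20.4% lower. Ambn (ameloblastin) was at 31405, 32180 and 33061 TPM in the controls and at 24646, 8562 and 26263 TPM in the cKO libraries, a mean 38.5% lower. Replicate 2 was the lowest cKO library for both, and without it the cKO means were 4.46% (Amelx) and 21.0% (Ambn) below the control means.

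**Figure D5:**
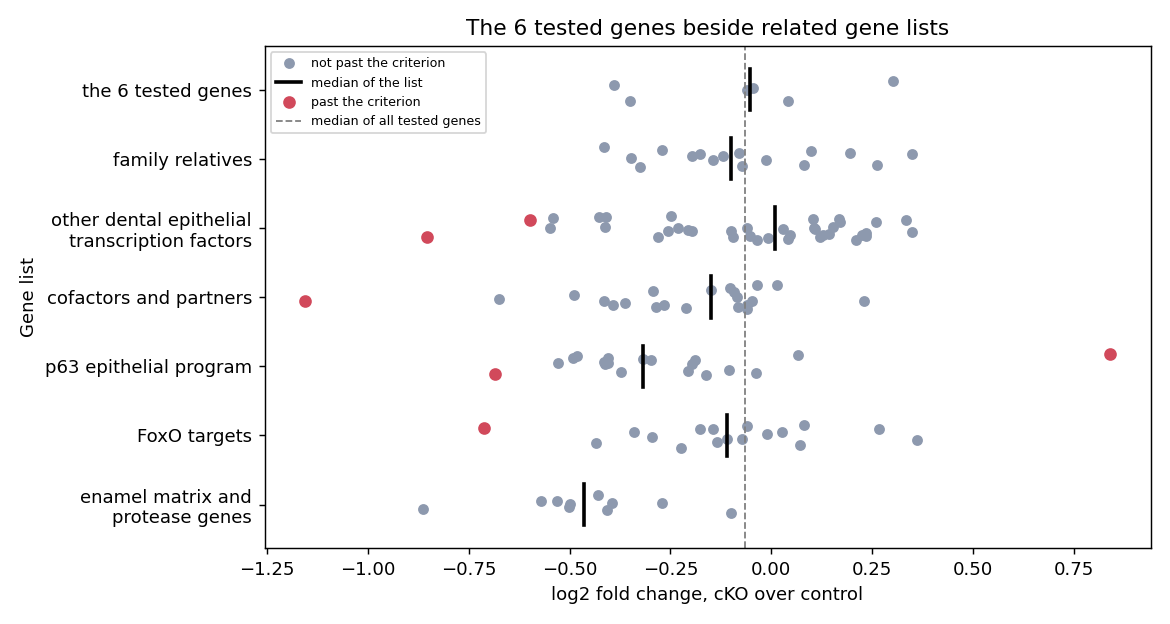
Log2 fold change of cKO over control for each tested gene of 7 lists, with red points past the study's criterion, black bars at each list's median and a dashed line at the median of all tested genes. No point of the 6 genes is red, and the medians of the p63 program (-0.32) and the enamel genes (-0.46) lie left of the dashed line (-0.07).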

How the data were processed

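Dental epithelium was taken from pooled mandibular first molars (4 in the series' design text, 5 in the study's methods) of control and cKO mice, and libraries were prepared with a TruSeq RNA kit. The submitters' processing notes name HISAT2 and StringTie, without versions, while the study's methods name HISAT2, RSEM and FPKM. The authors deposited 1 table of TPM values for 55487 genes in 6 libraries; strand use and the genome build were not given in the sources used here. Read counts were not used here. The limma p-values set a group difference against a spread between libraries that was moderated over all tested genes. Each library was a pool of molars, so this is a spread between pools. Log2(TPM + 1) values of 13719 genes averaging 1 TPM or more were compared with limma 3.58.1 (R 4.3.3; mean-variance trend, Benjamini-Hochberg adjustment over all tested genes, p threshold 0.05). Single values were compared with exact permutation tests (SciPy 1.17.1). Positions and lengths came from the GENCODE annotation of GRCm38, in which 55227 gene identifiers (99.5%) were found, and promoter windows from RefSeq. 16 alternatives were run. Named were all 7 genes, Wnt10a, the genes of each list past the criterion without overlap, the 2 most abundant of each list, and the 2 genes most like each factor. Some of these are not reported here. Any other gene was picked with its values in view. Factors and lists were chosen with earlier results of these data known.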

Additional observations from a re-analysis of the deposited data

How the results depend on the processing

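The 6 tested genes gave 96 values under 16 alternatives, of which 3 met the criterion and none had an adjusted p below 0.05 (the lowest was 0.534). The log2 fold change of Sp6 turned positive with median-ratio scaling (0.006) and with the length and GC correction, without or with the replicate block (0.093), that of Satb1 with the same settings (0.022 and 0.143), and that of Msx2 turned negative (-0.008) after rescaling to coding genes without Amelx and Ambn. With 1 library left out in turn, Sp6 ranged from -0.291 to 0.156, Msx2 from -0.052 to 0.173, Satb1 from -0.343 to 0.15, Tbx1 from 0.158 to 0.42, Trp63 from -0.58 to -0.205 and Foxo1 from -0.649 to -0.257. Of the 7 genes, 1 met the criterion with no filter (Isl1), and 1 with the length and GC correction and the replicate block together (Tbx1, 0.346, adjusted p = 0.593 by limma, where 8.1% of tested genes met it); leaving out 1 library gave 0 to 1. Wnt10a met it under 16 of 16. The study's methods speak of 3 pairs of replicates, and name no litter, batch or day for a pair. Whether the replicate numbers pair the libraries is not settled, and the main fit did not pair them. The correlations of same-numbered libraries were -0.08, 0.29 and 0.40. cKO replicates 2 and 3 were each most like the control of the same number, while cKO replicate 1 was most like control replicate 2. In the deposited column names both groups skip the same number. With the replicate block the lowest unadjusted p-values of the 6 genes were 0.069 (Trp63) and 0.088 (Tbx1) by limma. The replicate block moved the genes past the criterion from 552 to 1315 and those with an adjusted p below 0.05 from 2 to 4. They numbered 940 with no filter, 1110 with the length and GC correction and the block, and 195 to 1152 with 1 library left out. The replicate block gave 7 calls in the p63 program (2 without it), 4 in the cofactors (1) and 3 in the endothelial markers (2), where 9.59% of all tested genes were called. The length and GC correction with the block gave 5 in the erythroid markers (1) and 2 in the relatives (0), where 8.1% were. Leaving out control replicate 3 gave 3 in the enamel genes (0) and 2 in the FoxO targets (1), where 8.33% were, and leaving out cKO replicate 3 gave 4 in the other dental factors (2), where 6.72% were. These were the highest counts of each list just named, and the lowest over the alternatives were 1 in the cofactors and 0 in the others just named. Over the alternatives the dental epithelial markers gave 0 to 2 calls and the osteoblast markers 1 to 2. Markers of mesenchyme and odontoblasts gave 0 to 1, as did those of neurons and Schwann cells. Alternatives that need read counts were not run, since TPM are not counts. With 3 libraries a group the exact test cannot go below 0.1, and TPM keep no depth. The causes of these shifts were not tested.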

Other observations

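Within a library, the ratio of 2 of these factors does not depend on the scaling of that library. Of 15 ratios between the 6 tested genes, 2 had groups without overlap, and both were picked out after their values were seen. The 15 ratios share 6 genes. The share without overlap was 9.64% over single tested genes and was not computed over ratios of other genes. The ratio of Tbx1 to Trp63 was 0.397, 0.445 and 0.678 in the controls and 0.776, 0.842 and 0.721 in the cKO libraries. The ratio of Trp63 to Satb1 was 0.806, 0.768 and 0.907 in the controls and 0.738, 0.571 and 0.703 in the cKO libraries. Each had an exact two-sided permutation p of 0.1, the smallest that 3 against 3 can give, before any adjustment over the 15.

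The genes whose log2(TPM + 1) was most like that of each factor over the 6 libraries were read from 7366 genes averaging 10 TPM or more, as a description of libraries that share their scaling. They were Pak4 (Pearson r = 0.992) and Mex3d (0.989) for Sp6, Rab40c (0.984) and Dok5 (0.978) for Msx2, and Plgrkt (0.986) and Myl6 (0.983) for Tbx1. For Trp63 they were Gm10557 (0.998) and Abca1 (0.994), for Foxo1 Natd1 (0.988) and Stk24 (0.987), and for Satb1 Arf2 (0.996) and Thap12 (0.996). An r above 0.9 was reached by 827 genes with Satb1, 511 with Trp63, 201 with Foxo1, 126 with Tbx1, 71 with Sp6 and 24 with Msx2.

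Other cells' markers past the criterion were Bglap, which was higher in cKO (473 against 837 TPM; log2 fold change 0.82; limma, adjusted p = 1.00; exact permutation p = 0.1) under 16 of 16 alternatives, and Cdh5, Tek and Hbb-bs, which were lower in cKO. Cdh5 met the criterion under 9 of 16 alternatives, Tek under 7 of 15 and Hbb-bs under 10 of 16, and Cdh5 and Tek did not meet it after the length and GC correction (log2 fold changes of -0.61 and -0.40). Of the 5 endothelial markers 2 thus met it, where 4.02% of all tested genes did. All 5 endothelial, 5 erythroid and 4 tested leukocyte markers had negative log2 fold changes (medians -0.54, -0.43 and -0.23).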
